A study of Mus musculus with 2931 samples.

Results

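The stabilin and scavenger receptor genes described here are Stab1, Stab2, Mrc1, Scarb1 and Scarf1, 5 of the 18072 genes counted in single endothelial cells (EC) of mouse distal lung. They were taken as the rows of the count table with these symbols, and all 5 were found. Their levels over the cell labels and their fall from the embryonic stage E18.5 to postnatal day 1 (P1) were known, and the genes were chosen by these measured levels and this fall, so these levels and that fall are given as descriptions without a test. Only the comparisons of later days and of hyperoxia were tested.

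Scavenger receptors are membrane proteins that bind altered, excess or foreign material outside the cell and carry it to endosomes and lysosomes. Stab1 and Stab2 encode stabilin-1 and stabilin-2, large relatives known from the sinusoidal endothelium of liver, spleen and lymph node. Stabilin-1 takes up SPARC and modified lipoproteins, and stabilin-2 is a clearance receptor for hyaluronan and heparin. Mrc1 encodes the mannose receptor CD206, a C-type lectin of macrophages and of lymphatic and sinusoidal endothelium. Scarb1 encodes SR-BI, the receptor for high-density lipoprotein, and Scarf1 encodes SREC-I, a receptor for acetylated low-density lipoprotein that also binds calreticulin and C1q on dying cells.

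Promoter sequence is shown for Stab1 and Mrc1, which were highest in lymphatic EC, and for Stab2, which was highest in embryonic and lymphatic EC, because the data turn on where they are transcribed. The stretches are those bases of the RefSeq promoter table (GRCm38.p6) that lie before the start of both the RefSeq transcript and the GENCODE gene, written 5′ to 3′ on the strand of the gene. Of the 5 genes, 3 matched the table by symbol. Capitals mark exact matches, on either strand, to AGGAAG (the core bound by ETS factors), AGATAA (bound by GATA factors), ACGTG (bound by hypoxia-inducible factors) or TGCTGA (a site of MAF factors). No match overlapped another.
Stab1, chr14:31168642-31168891, minus strand: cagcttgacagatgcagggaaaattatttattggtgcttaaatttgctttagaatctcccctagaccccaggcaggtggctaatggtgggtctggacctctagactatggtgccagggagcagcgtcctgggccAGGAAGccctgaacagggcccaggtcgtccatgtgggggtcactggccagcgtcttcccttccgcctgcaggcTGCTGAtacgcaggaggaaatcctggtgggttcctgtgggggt
Stab2, chr10:87008026-87008192, minus strand: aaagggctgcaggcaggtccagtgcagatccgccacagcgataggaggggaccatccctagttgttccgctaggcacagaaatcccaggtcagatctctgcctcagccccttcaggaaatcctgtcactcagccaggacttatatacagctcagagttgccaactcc
Mrc1, chr2:14229164-14229391, plus strand: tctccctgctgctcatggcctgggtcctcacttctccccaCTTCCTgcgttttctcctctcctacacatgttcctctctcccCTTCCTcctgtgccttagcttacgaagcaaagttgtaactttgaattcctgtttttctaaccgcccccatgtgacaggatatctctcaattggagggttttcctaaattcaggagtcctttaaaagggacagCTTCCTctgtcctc
The 250 bases of Stab1 held 1 match to AGGAAG and 1 to TGCTGA, the latter starting 43 bases before the gene. The stretch of Mrc1 held 3 matches to AGGAAG, all on the other strand and printed as CTTCCT. The stretch of Stab2 held none of the 4 motifs. AGGAAG stood in 29.5% of all 32851 promoters over 250 bases, in 26.98% over the length of the Mrc1 stretch and in 20.1% over that of Stab2. TGCTGA stood in 16.1% of them over 250 bases. Neither AGATAA nor ACGTG matched in the 3 stretches. Over 250 bases AGATAA stood in 9.99% of promoters, and ACGTG stood in 16.6%.

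The series compared the lung endothelium through birth and early growth and under injury by hyperoxia. It holds 2931 cells of 10 mice, in 5 groups of 1 female and 1 male: E18.5, P1, P7 in normal air, P7 in hyperoxia and P21. The strain, the oxygen level and whether 1 mouse name can cover several animals are not given in the sources used here. The cells came from sorting gates named CD31 (2694 cells), mesench and CD45 (13 cells), and each carries 1 of 10 subtype labels of the authors, which were used as they stand.

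The whole set of libraries had 42095 to 2967985 reads per cell, and the median of a mouse lay between 188610 (P7 normal, male) and 928377 (P7 normal, female). For every mouse and label the reads of all cells were added up, and such a sum was used where it held at least 8 cells. Levels are counts per 1000000 reads of the sum (CPM). A label called Car4- capillaries below joins the Early and Late Car4- labels. The endothelial markers Pecam1, Cdh5, Kdr, Tek, Erg, Tie1 and Egfl7 together gave 4483 to 11554 CPM in every such sum, and the summed level of 15 macrophage markers was at most 107.2 CPM, in venous EC of the P7 normal female. Cell names were unique, so no cell was shared between libraries, and no doublet caller was run.

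Of the 5 genes, Stab1 had 455686 reads in 1932 cells and Scarb1 had 453775 reads in 1779 cells. Scarf1 followed with 177497 reads in 1146 cells. Stab2 and Mrc1 were sparse, with 36822 reads and 25352 reads, the latter in 660 cells. On GRCm38 (GENCODE M21), Stab1 lies at chr14:31139013-31168641, Stab2 at chr10:86841198-87008025, Mrc1 at chr2:14229392-14332057, Scarb1 at chr5:125277087-125341094 and Scarf1 at chr11:75513540-75526582. The 3′ end of Stab1 overlaps the last exon of Nt5dc2 on the other strand, and the antisense genes Gm16268 and Gm16271 overlap exons of Stab2. Whether the counting used strand is not given in the sources used here, so reads in these overlaps cannot be told apart.

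Per kilobase of exon, embryonic EC carried mainly 3 of the receptors. In nonproliferative embryonic EC of E18.5, Scarb1 stood at 32.5 CPM per kilobase, Scarf1 at 30.7, Stab1 at 23.6, Stab2 at 10.8 and Mrc1 at 1.21. In lymphatic EC of P1 the order on the same scale was Stab1 at 131.3, Scarf1 at 57.3, Mrc1 at 49.6, Stab2 at 7.64 and Scarb1 at 3.77. On this scale Stab1, Scarf1 and Mrc1 were higher in lymphatic EC, and Scarb1 and Stab2 were lower.

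**Figure D1:**
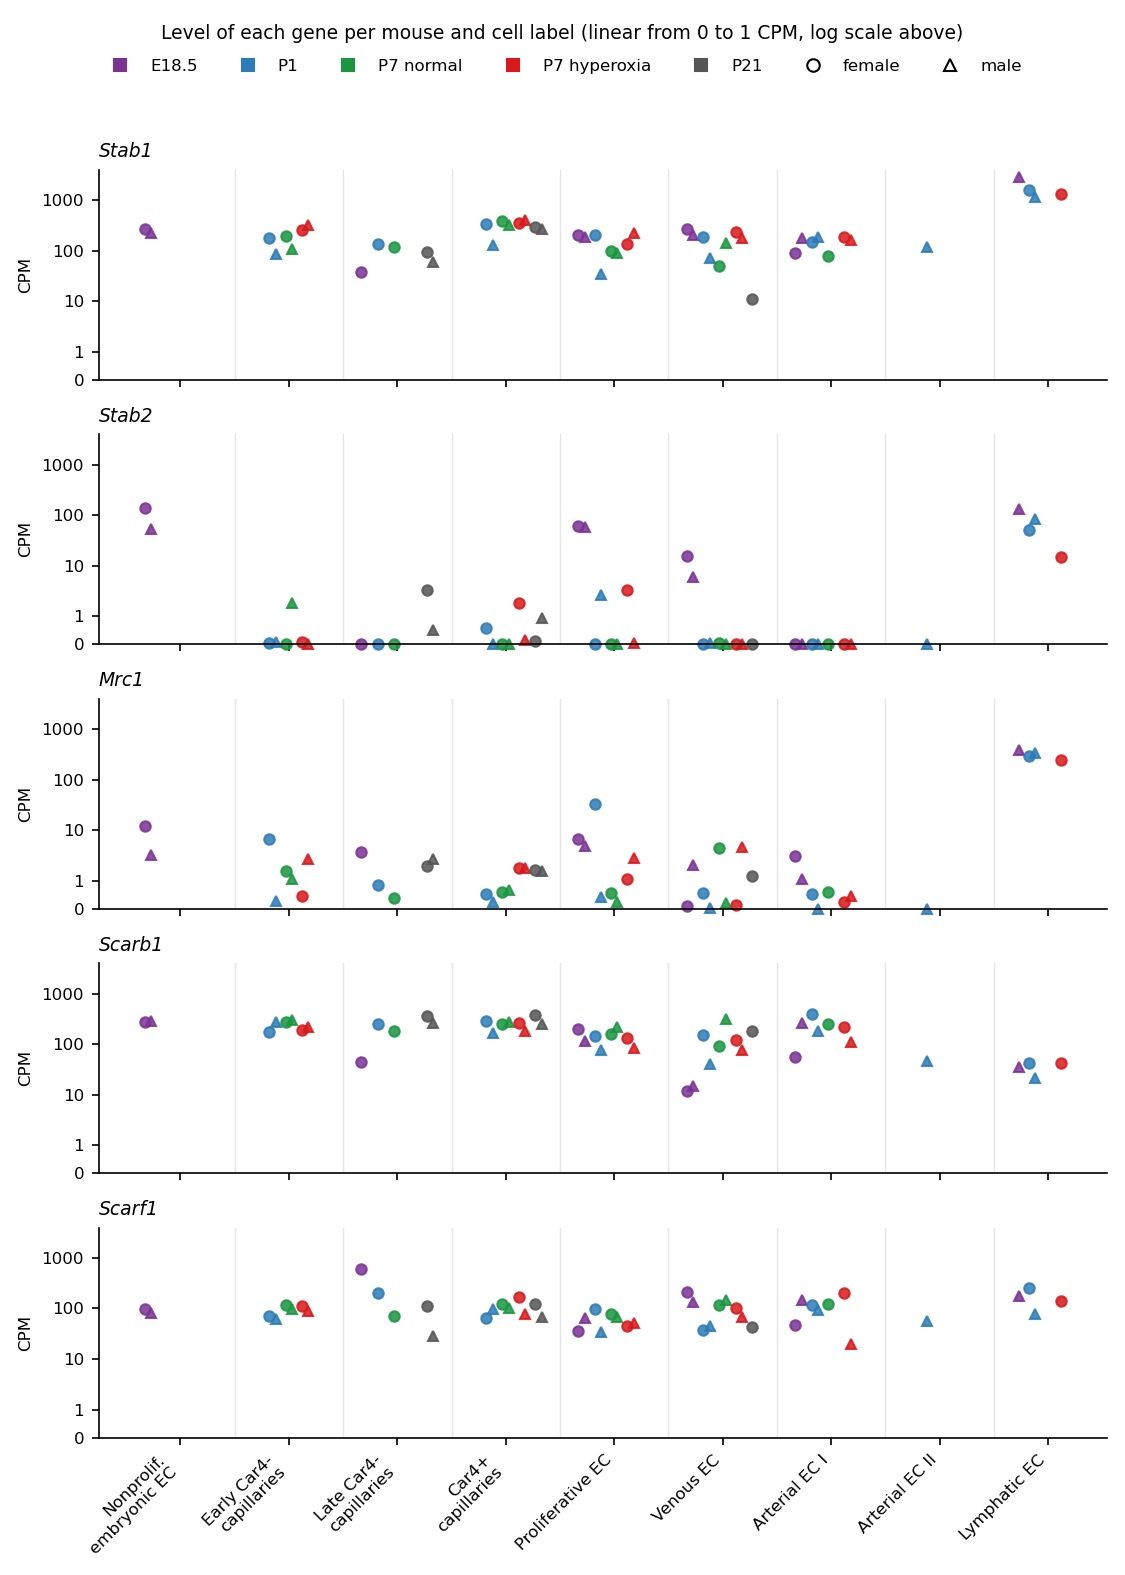
CPM of each gene (vertical axis, linear from 0 to 1 and logarithmic above) in every sum of a mouse and a label with at least 8 cells; colours are groups, circles females and triangles males. Stab1 and Mrc1 stand highest in lymphatic EC, from 1124 and from 247.4 CPM, Stab2 is at 53.02 and 136.96 CPM in embryonic EC and at 0 in arterial EC, and Scarb1 is at most 42.5 CPM in lymphatic EC.

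Stab1 was measured in every label. Its 4 lymphatic sums read 2902 CPM (E18.5 male, 10 cells), 1579 (P1 female, 26 cells), 1124 (P1 male, 13 cells) and 1314 (P7 hyperoxia female, 14 cells). The 46 sums of the other labels ran from 10.95 to 400.995 CPM with a median of 178.5, so the lymphatic sums did not overlap any other label. Car4+ capillaries came next, with a median of 324.7 CPM (131.2 to 400.995, 8 sums), followed by nonproliferative embryonic EC at 223.4 and 262.96 CPM. Early Car4- capillaries (median 186.1 CPM), venous EC (177.6), proliferative EC (161.8), arterial EC I (161.8) and Late Car4- capillaries (94.8) followed, and each of these overlapped its neighbour in the order. The lowest sum was that of P21 venous EC, 13 cells of the female at 10.95 CPM.

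Stab2 had a narrower distribution. It stood at 136.96 CPM in the female and 53.02 CPM in the male of nonproliferative embryonic EC, and at 129.9, 49.9, 83.9 and 14.7 CPM in the lymphatic sums named above for Stab1, in the same order. Proliferative EC of E18.5 held 60.2 and 58.5 CPM. All 7 sums of arterial EC I, of E18.5, P1 and P7, had 0 reads of Stab2. In the postnatal sums outside lymphatic EC it did not pass 3.23 CPM. The ranges of embryonic and lymphatic EC overlapped.

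At E18.5, the reads of Stab2 came from a minority of the nonproliferative embryonic EC. With each cell thinned to 50000 reads, 46 cells of nonproliferative embryonic EC in the female (34.8%, exact 95% interval 26.8 to 43.6%) and 33 cells in the male (19.6%, 13.9 to 26.5%) held a read of Stab2. Without thinning these shares were 40.3% and 26.2%. In arterial EC I of the same mice, a label without the gene, 0 of 12 and 0 of 13 cells did, and the latter allows a share of up to 23.1%. The 10 cells with the most reads held 60.5% (female) and 68.8% (male) of all Stab2 reads of embryonic EC, and among cells with a read the median was 176.2 and 124.3 CPM. Scarf1, at a like level in these cells (97.4 and 79.9 CPM), was read in 35.6% and 29.2% of them at equal depth. A low level that was missed in the other cells cannot be told apart from absence. These intervals cover counting error only, since reads without molecular identifiers are not independent molecules.

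The cells with Stab2 held few or no reads of Prox1, Pdpn, Ptprc and Csf1r, while Lyve1 was read in most of them. In nonproliferative embryonic EC, Prox1, the transcription factor that defines lymphatic identity, had a read in 2.17% of cells with Stab2 in the female and in none of the male. Pdpn, Ptprc and Csf1r had a read in no cell with Stab2 in either mouse at that depth, among 46 and 33 cells. Pdpn was read in only 36 of 82 lymphatic cells, so its absence says little. Flt4, Mmrn1, Reln and Ccl21a were not counted in the cells with Stab2. Cdh5 was read in 97.8% (female) and 96.97% (male) of them. Stab1 was found in 58.7% of cells with Stab2 and 73.3% of those without it in the female, and in 66.7% and 54.8% in the male, so the order differed between the mice. Lyve1, the hyaluronan receptor that lymphatic EC and these embryonic EC share, was read in 89.1% against 86.05% (female) and 90.9% against 78.5% (male).

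**Figure D2:**
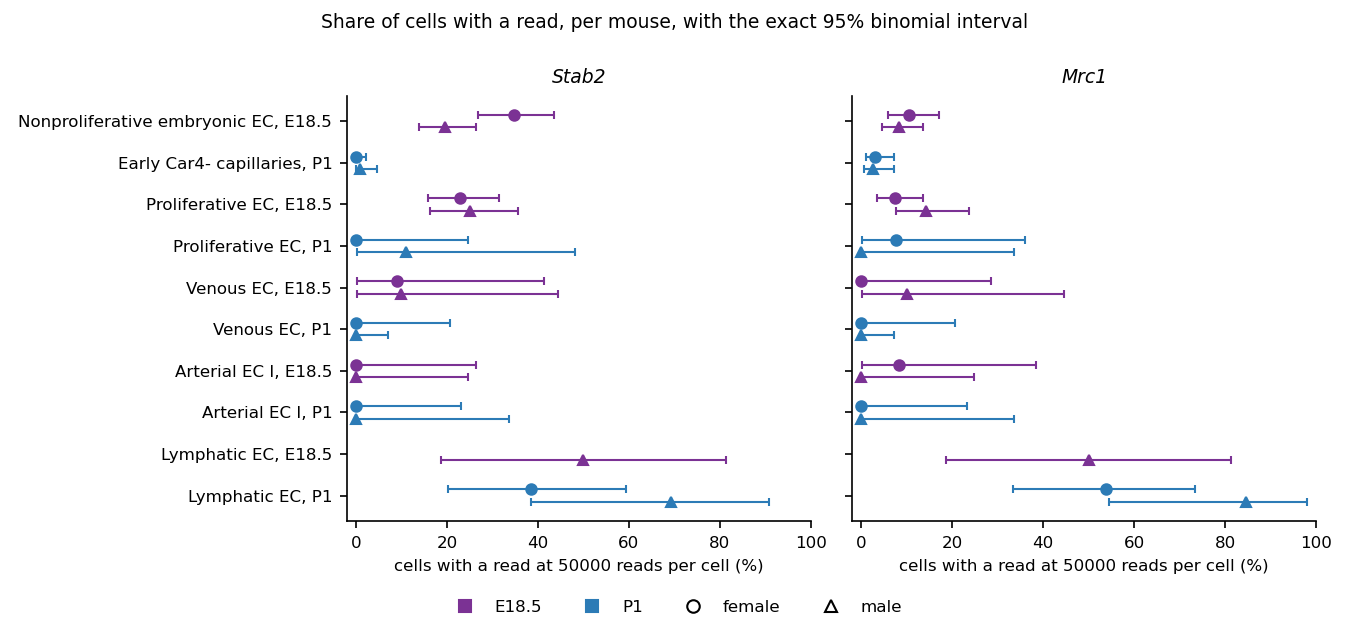
Percent of cells with at least 1 read of Stab2 (left) or Mrc1 (right) after thinning to 50000 reads per cell (horizontal axis), per mouse and label with at least 8 cells; bars are exact 95% binomial intervals. Stab2 is at 34.8% and 19.6% of embryonic EC at E18.5, at 0 and 0.833% of Early Car4- capillaries at P1, and at 38.5% and 69.2% of lymphatic EC at P1.

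Mrc1 was a lymphatic gene in these cells. Its lymphatic sums were 389.6 CPM (E18.5 male), 295.4 (P1 female), 336.3 (P1 male) and 247.4 (P7 hyperoxia female). The other 46 sums ran from 0 to 33.4 CPM with a median of 1.07, so they did not reach the lymphatic ones. Nonproliferative embryonic EC came next, at 12.3 and 3.14 CPM. Among the cells with a read in the female of that label, 10 cells held 93.8% of the Mrc1 reads, and 5 cells were at or above 100 CPM. The highest sum outside lymphatic EC, 33.4 CPM, was that of 13 proliferative cells of the P1 female, of which 1 held 99.5% of the reads.

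Of the 82 lymphatic cells of all mice, thinned, 82 held a read of Stab1, 50 of Mrc1, 50 of Scarf1, 35 of Stab2 and 26 of Scarb1. Of the 35 cells with Stab2, 30 also had Mrc1. Of the lymphatic markers, Flt4 and Mmrn1 were read in 82 of these cells, Ccl21a in 78 and Prox1 and Reln in 77. Lyve1 was read in 69 and Pdpn in only 36. The leukocyte gene Ptprc and the macrophage receptor Csf1r were read in 0, which allows up to 3.66% of the cells. The 15 macrophage markers together gave 7.84 to 20.2 CPM in the 4 lymphatic sums, against 0.0429 to 107.2 CPM in the other labels.

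Scarb1 was lowest in lymphatic EC, where Stab1 and Mrc1 were highest. It stood at 34.7, 42.5, 21.5 and 41.9 CPM in the sums of the E18.5 male, P1 female, P1 male and P7 hyperoxia female. Nonproliferative embryonic EC (270.7 and 281.6 CPM), Car4+ capillaries (median 257.1), Late Car4- (248.9) and Early Car4- capillaries (245.3) led and overlapped one another. Arterial EC I followed at 217.3, proliferative EC at 135.8 and venous EC at 91.6 CPM. The spread within venous EC was wide, from 11.8 to 316.6 CPM. Venous EC of E18.5, at 11.8 and 15.1 CPM, was the label and day with the least Scarb1.

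Scarf1 hardly separated the labels. The medians ran from 57.1 CPM (arterial EC II, 1 sum) and 58.8 (proliferative EC) to 116.04 (arterial EC I) and 158.9 (lymphatic EC), and every label overlapped the next. The highest sum, 598.9 CPM in Late Car4- capillaries of the E18.5 female, came from 12 cells of which 1 held 99.01% of the Scarf1 reads. The lowest, 19.9 CPM, was arterial EC I of the P7 hyperoxia male.

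For the E18.5 to P1 comparison, nonproliferative embryonic EC of E18.5 were set against the Car4- capillaries of P1, since the E18.5 female had 13 cells under the Car4- labels and the male had none. Label and day therefore cannot be told apart in this comparison. Of those 13 cells, the 12 Late cells had 0 reads of Stab2 and the 1 Early cell had 1 read. The 5 cells labelled nonproliferative embryonic EC at P1 had 0 reads as well. Stab2 went from 136.96 CPM (female) and 53.02 CPM (male) to 0.0243 and 0.0807 CPM, where 2 and 8 reads were left. The ratio of the mean CPM was 1809.9, and the ratio of the pooled reads was 1589 with a 95% counting interval of 864 to 3315. This interval and the counting intervals below cover counting error only, not the spread between mice or cells. Reads without molecular identifiers are not independent molecules. By log2 ratio Stab2 ranked 2 among 12598 genes with a level in these cells. The genes were chosen by this fall, so the rank is a description and supports nothing. Stab1 stood at 262.96 and 223.4 CPM and then at 176.1 and 84.01, a ratio of 1.87. Scarb1 stood at 270.7 and 281.6 CPM and then at 178.4 and 270.4, and Scarf1 at 97.4 and 79.9 and then at 79.7 and 61.4. Those ratios were 1.23 and 1.26.

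Both E18.5 mice lay above both P1 mice for Stab1, Stab2, Scarb1 and Scarf1. The same held for 19.8% of all genes, and 16.1% had both E18.5 mice below. For Scarb1 the nearest mice were at 270.7 and 270.4 CPM, and for Scarf1 at 79.9 and 79.7 CPM. Mrc1 overlapped, with 12.3 and 3.14 CPM before and 6.20 and 0.272 CPM after birth. The median log2 ratio of all genes was 0.08. These values were used to choose the genes, so the count supports nothing. The summed macrophage markers were 17.3 and 32.4 CPM in embryonic EC and 12.4 to 18.3 CPM in Car4- capillaries of P1. Their part in the low Mrc1 values was not tested.

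In proliferative EC, Stab2 went from 60.2 and 58.5 CPM to 0 and 2.61 CPM, though only 13 and 9 cells were left at P1. The ratio of pooled reads was 33.8 (counting interval 23.95 to 49.5). The other 4 genes overlapped between the days, among them Stab1 at 206.99 and 187.5 CPM against 204.3 and 34.4, and Scarb1 at 198.7 and 115.4 against 142.9 and 76.8. Of all genes, 26.4% had both E18.5 mice above both P1 mice and 10.1% had both below.

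In venous EC the 5 genes went in different directions. Stab2 stood at 15.1 and 5.80 CPM at E18.5 and had 0 and 2 reads at P1, a ratio of pooled reads of 375.7 with a counting interval of 102.7 to 3123. At E18.5 these reads came from 1 of 11 cells in each mouse, so the interval does not cover the spread over cells. Thinned cells gave a lower ratio, as listed at the end. Scarf1 went from 212.6 and 136.8 CPM to 36.9 and 45.3 CPM, a ratio of 4.25. Of its E18.5 reads 1 of 11 cells held 64.1% in the female and 74.3% in the male, and the medians over cells were 39.7 and 0 CPM against 5.76 and 2.88 CPM at P1. Stab1 went from 265.9 and 198.6 CPM to 187.4 and 70. Scarb1 was instead lower at E18.5, at 11.8 and 15.1 CPM against 147.7 and 40.5. Both E18.5 mice lay above both P1 mice for 9.97% of all genes and below them for 27.5%.

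In arterial EC I, Stab2 was at 0 in all 4 sums. Mrc1 stood at 3.12 and 1.09 CPM against 0.513 and 0, with both E18.5 mice above, as for 13.4% of all genes (16.4% had both below). All 23 reads of the E18.5 female came from 1 cell, and with thinned cells the log2 ratio was -1.65 in place of 3.04. The other 3 genes overlapped between E18.5 and P1, with Scarb1 at 55.9 and 258.3 CPM against 392.9 and 183.6.

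**Figure D3:**
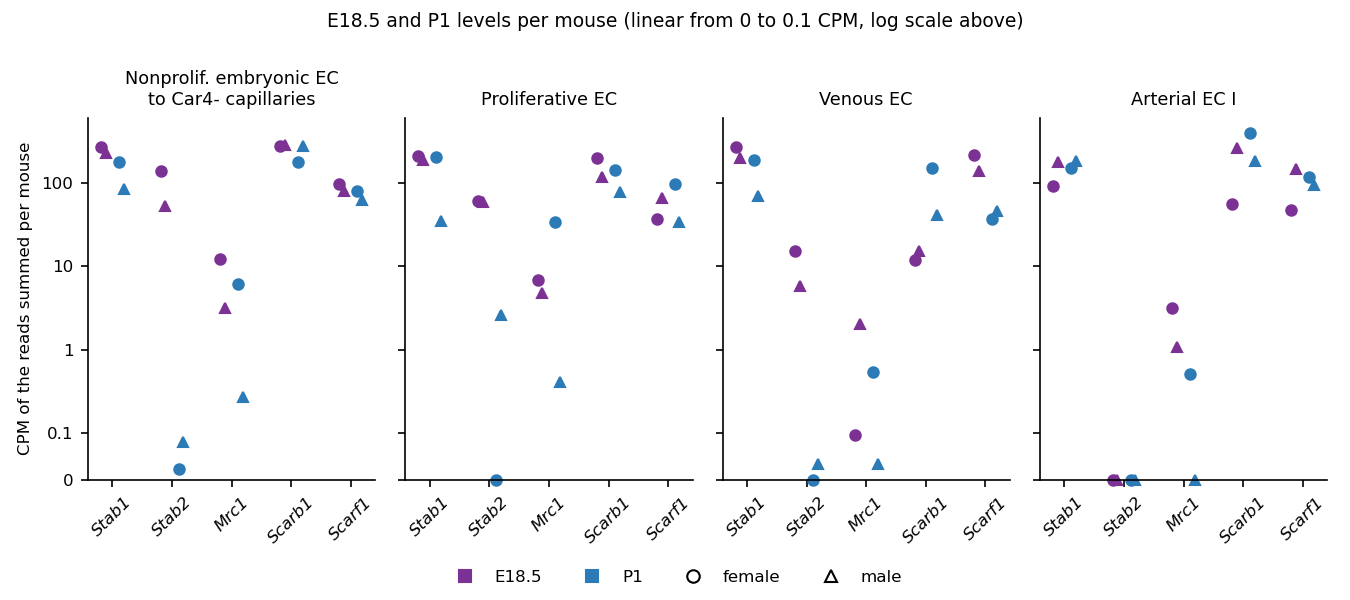
CPM per mouse at E18.5 (purple) and P1 (blue) for the 5 genes in 4 comparisons of cell labels (vertical axis linear from 0 to 0.1 CPM and logarithmic above). Stab2 drops from 136.96 and 53.02 to 0.0243 and 0.0807 CPM in the first panel and is at 0 throughout in arterial EC I, while venous Scarb1 moves the other way, from 11.8 and 15.1 to 147.7 and 40.5 CPM.

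Lyve1, which like stabilin-2 binds hyaluronan, was higher at P1. It stood at 1029 and 953 CPM in nonproliferative embryonic EC and at 2056 and 2546 CPM in Car4- capillaries of P1. Of 13 genes known from sinusoidal EC, 8 had at least 1 CPM in this comparison, and both E18.5 mice were above for Oit3, Gpr182, F8 and Maf and below for Lyve1 and Il6st. Maf, a transcription factor of sinusoidal and lymphatic endothelium, stood at 15.4 and 19.7 CPM against 5.46 and 1.40. Gpr182, a scavenging chemokine receptor, went from 410.7 and 407.8 CPM to 349.2 and 371.2. The median log2 ratio of these 8 genes was -0.05 against 0.08 for all genes.

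The background for the counts of the lists is the 19.8% of all genes above and 16.1% below at E18.5. Of 17 genes for ligands of the members, 11 had at least 1 CPM, with 4 above and 2 below at E18.5 and a median log2 ratio of 0.74. Tgfbi, a matrix protein that stabilin-1 takes up, stood at 65.3 and 80.1 CPM in embryonic EC and at 10.99 and 19.5 CPM in P1 Car4- capillaries. Calr, the calreticulin that Scarf1 binds, went from 479.6 and 335.001 to 303.2 and 184.2 CPM. Among 11 of 21 other scavenger receptors, 2 were above and 4 below, with a median of -0.37. Cd36, the fatty acid and lipoprotein receptor, was one of those below, with 298.2 and 226.8 CPM against 1145 and 577. For the 14 genes of lipoprotein and cholesterol handling at this level, 0 were above and 4 below (median -0.26), and for 19 genes of endocytosis and its adaptors 2 were above and 3 below (median -0.01). Of the C-type lectins 3 of 9 had this level, with 0 above and 1 below (median -0.50), and of the genes for uptake of apoptotic cells 11 of 13, with 1 above and 1 below (median -0.02). These genes were picked for mention after their values were seen, except for those named for their abundance.

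After birth no member passed the test. Reads summed per mouse were compared with the quasi-likelihood test of edgeR in Car4- capillaries, Car4+ capillaries, proliferative EC and venous EC, and p-values were adjusted over all genes of a comparison by the method of Benjamini and Hochberg. In Car4- capillaries 0 of 5 members were called between P7 and P1, between P21 and P7 and under hyperoxia, where 0, 0.266 and 0.0136% of the 14660 genes tested were called. In Car4+ capillaries 0 of 5 were called in the same 3 comparisons, against 0, 0.00814 and 0% of 12284 genes. In proliferative EC and venous EC, P7 against P1 and hyperoxia against normal air again gave 0 of 5 each, with 0% of 13102 and of 12326 genes called. With 10 comparisons and 5 genes, 5 of 50 unadjusted p-values lay under 0.05, and the 50 include those of venous Stab2. Over all genes, up to 1663 had such a p in a comparison. DESeq2 called 0.617 to 4.76% of the genes tested, among them 1 member, Stab2 in proliferative EC between P7 and P1.

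Between P1 and P7 in normal air, Stab1 and Scarb1 overlapped in Car4- capillaries. Stab1 stood at 176.1 and 84.01 CPM at P1 and at 183.6 and 119.9 CPM at P7, and Scarb1 at 178.4 and 270.4 and then at 261.2 and 312.7. Scarf1 stood at 79.7 and 61.4 CPM at P1 and at 109.7 and 98.7 CPM at P7 (log2 change 0.47, standard error 0.50, edgeR adjusted p = 0.752), with both P7 mice above, as for 21.1% of genes. In Car4+ capillaries Scarf1 went from 64.4 and 98.2 to 121.004 and 103.2 CPM (12.9% of genes with both above), while Stab1 overlapped at 331.995 and 131.2 against 390.4 and 317.5.

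Scarf1 in venous EC had the widest difference of the 3 abundant genes. It stood at 36.9 and 45.3 CPM at P1 and at 115.2 and 147.98 CPM at P7, so the days did not overlap (17.3% of genes had both P7 mice above and 18% had both below). The log2 change was 1.59 with a 95% interval of 0.17 to 3.00 and an edgeR adjusted p of 1. Scarb1 in proliferative EC stood at 142.9 and 76.8 CPM and then at 160.8 and 212.3 CPM, also without overlap and without a call (log2 change 0.66, edgeR adjusted p = 0.625; 25.8% of genes had both P7 mice above).

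Between P7 and P21, the cells joined as Car4- capillaries differed in label: 85.7% of their cells in normal air were Early at P7 and 98.7% were Late at P21. Stab1 stood at 183.6 and 119.9 CPM at P7 and at 94.5 and 57.9 CPM at P21, with both P21 mice below both P7 mice, as for 21.5% of genes. The log2 change was -0.90 (95% interval -1.78 to -0.02, edgeR adjusted p = 0.462). Within the P7 female, Stab1 was already lower in Late cells (119.3 CPM) than in Early cells (192.9 CPM), so the day and the label cannot be told apart here. In Car4+ capillaries the same days gave 390.4 and 317.5 CPM and then 289.6 and 268.8 CPM (log2 change -0.41, edgeR adjusted p = 0.995; 12.8% of genes had both P21 mice below). Scarb1 overlapped in both classes, at 261.2 and 312.7 against 360.1 and 262.9 CPM in Car4- and at 248.5 and 274.3 against 374.6 and 250.4 in Car4+ capillaries.

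The P21 levels of Scarb1 moved with the sorting gate. Of the P21 Car4- capillaries, the male had 186.5 CPM in the CD31 gate and 374.2 CPM in 83 cells of the mesench gate, and the female had 350.4 CPM and, in 50 mesench cells, 404.1 CPM. With the CD31 gate alone the log2 change from P7 to P21 was -0.021 in Car4- and -0.32 in Car4+ capillaries, in place of 0.23 and 0.15. The males of P7 and P21 whose CD31 cells shared a run, as given in the cell names, gave -0.79 and -2.07. The part of gate and run in the pooled value was not tested further. Scarf1 differed between the P21 mice, with 111.7 CPM in the female and 28.2 CPM in the male of Car4- capillaries, and overlapped with the 109.7 and 98.7 CPM of P7.

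Under hyperoxia at P7 no member was called. Both hyperoxia mice lay above both normal mice for Stab1 in 3 classes and below them for Scarb1 in Car4- capillaries and proliferative EC. Between 15.6% and 18.1% of all genes lay apart in the same way. In Car4- capillaries Stab1 stood at 260.7 and 318.6 CPM in hyperoxia against 183.6 and 119.9 CPM (log2 change 0.90, 95% interval 0.03 to 1.78, edgeR adjusted p = 0.887). In proliferative EC it stood at 136.1 and 222.8 CPM against 95.9 and 88.9 (log2 change 0.95), and in venous EC at 227.9 and 177.6 against 49.2 and 141.7 CPM (log2 change 1.12), both with an edgeR adjusted p of 1. The hyperoxia mice lay above the normal mice in these 3 classes, as they did for 18.1%, 16.6% and 17.6% of genes. In Car4+ capillaries, where Stab1 was already at 390.4 and 317.5 CPM, the hyperoxia mice had 352.2 and 400.995 CPM and overlapped (log2 change -0.16). The difference between the classes was not tested. The males whose cells shared a run gave log2 ratios of 1.22, 1.15 and 0.33 in Car4- capillaries, proliferative EC and venous EC.

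The share of Car4- cells with a read of Stab1 was also taken at equal depth. It was 89.5% in hyperoxia and 50% in normal air in the females, and 72.7% and 64.6% in the males. In the females the shares of Scarb1 (57.5% against 42.2%) and Scarf1 (42.5% against 27.7%) were higher in hyperoxia too, though Scarb1 had the lower CPM there. In the males they were lower, at 49.2% against 75.2% and 31.1% against 46.9%. The hyperoxia female had a median of 4065 genes per cell over all labels, against 3038 in the normal female, and the share of Stab1 in females is not read as a change. The lymphatic marker list moved in the same direction in Car4- capillaries: its 7 genes summed to 4253 and 3930 CPM in hyperoxia and to 913 and 912 CPM in normal air. Lyve1 alone made up 4023 and 3633 CPM of the former and 825 and 732 CPM of the latter (log2 change 2.27, edgeR adjusted p = 0.132). Flt4, a receptor that lymphatic EC and other EC can carry, stood at 228.4 and 290.6 CPM in hyperoxia against 85.9 and 178.8 CPM, and Mmrn1 at 1.54 and 6.73 against 1.45 and 0.274. Prox1 was at most 0.0411 CPM, Pdpn at most 0.137 and Reln at most 0.171 in the 4 mice, and Ccl21a was at 0 in all of them. The part of the marker list in the Stab1 values was not tested.

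Scarb1 in Car4- capillaries stood at 190.5 and 213.5 CPM in hyperoxia and at 261.2 and 312.7 CPM in normal air (log2 change -0.53, 95% interval -1.35 to 0.29, edgeR adjusted p = 1). Both hyperoxia mice were below both normal mice, as for 15.6% of genes. In proliferative EC the values were 128.7 and 82.01 against 160.8 and 212.3 CPM (log2 change -0.83, 16.4% of genes with both below), and in Car4+ capillaries (263.7 and 181.4 against 248.5 and 274.3) and venous EC (121.1 and 77.7 against 91.6 and 316.6) the mice overlapped. Scarf1 had both hyperoxia mice below in proliferative EC, at 44.2 and 52.1 against 78.6 and 68.8 CPM, and in venous EC, at 103.9 and 69.2 against 115.2 and 147.98 CPM (16.5% of genes). It overlapped in both capillary classes.

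**Figure D4:**
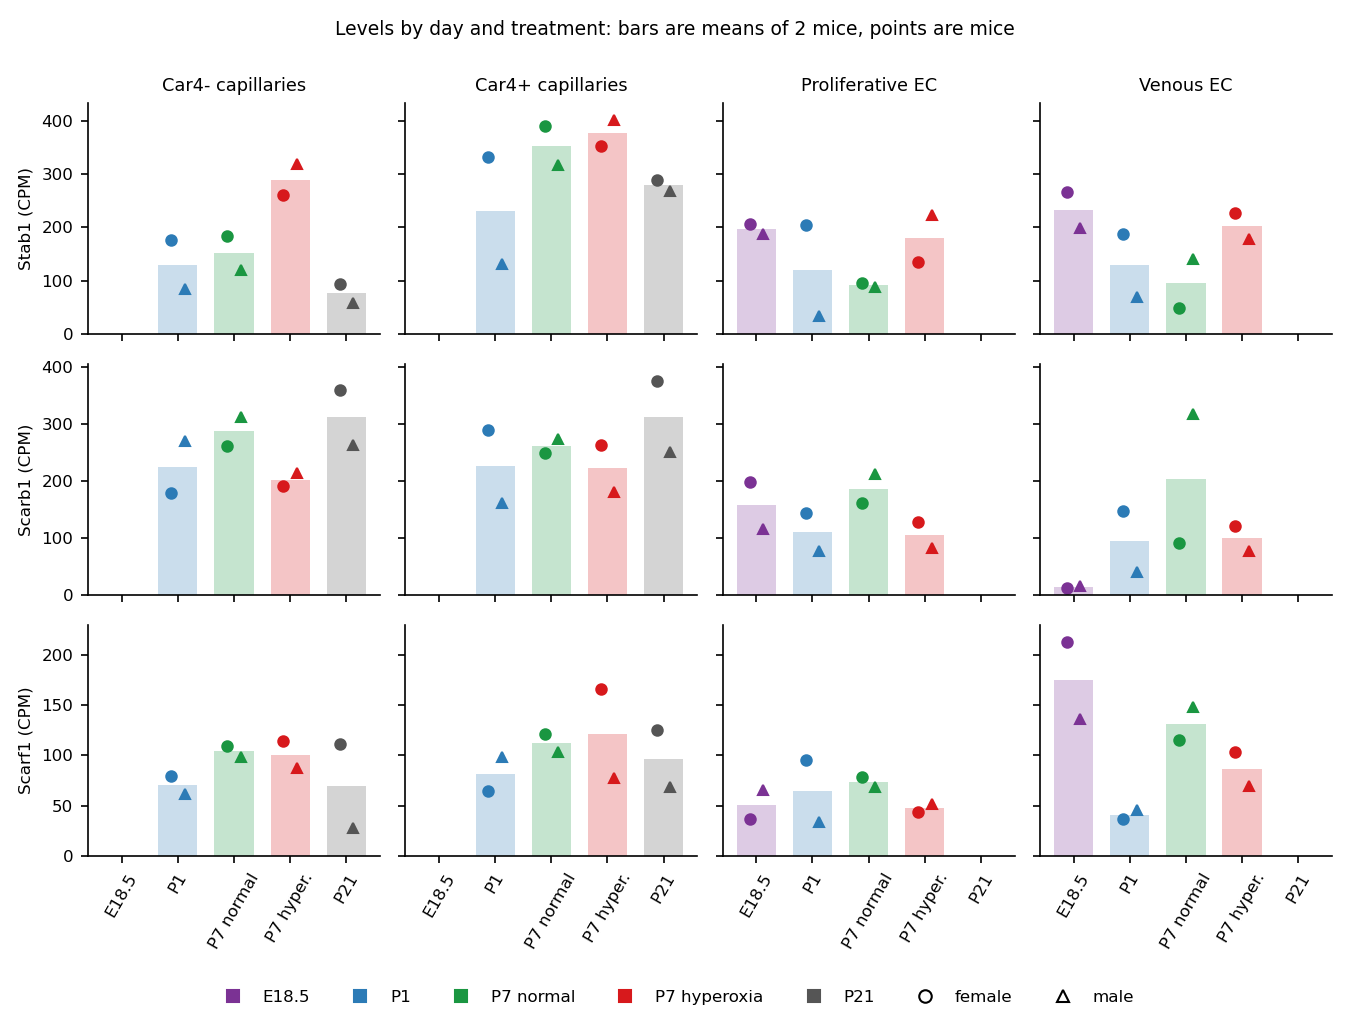
CPM (vertical axis, from 0) of Stab1, Scarb1 and Scarf1 by group in 4 classes of cells; bars are means of 2 mice, circles females and triangles males, and groups without 8 cells in both mice are left blank. Stab1 in Car4- capillaries is highest in the hyperoxia mice, at 260.7 and 318.6 CPM, and lowest at P21, at 94.5 and 57.9 CPM.

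**Figure D5:**
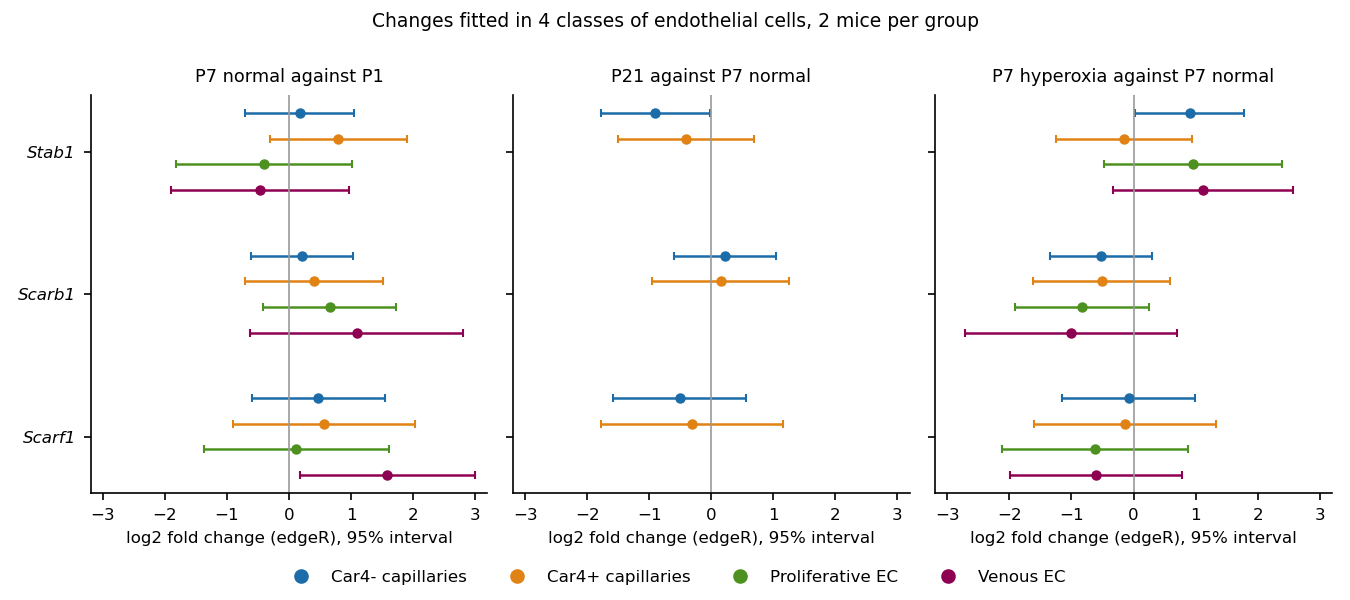
Fitted log2 changes (horizontal axis) with 95% intervals of Stab1, Scarb1 and Scarf1 in the 4 classes (colours) for 3 comparisons; 2 mice per group entered each fit. For Stab1 the interval of Car4- capillaries runs from -1.78 to -0.02 at P21 and from 0.03 to 1.78 under hyperoxia, and none of the changes shown passed the adjusted threshold of 0.05.

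Stab2 and Mrc1 were low in Car4- capillaries after birth. In Car4- capillaries Stab2 read 0.0108 and 1.81 CPM at P7, 0.0734 and 0.0103 CPM in hyperoxia and 3.18 and 0.511 CPM at P21. At equal depth 0.735% of the Car4- cells of the P21 female had a read. Mrc1 did not pass 6.20 CPM in any sum over both Car4- labels. In proliferative EC, Stab2 had 0 and 2.61 CPM at P1 and 0.0165 and 0 CPM at P7, the latter from 1 read. The edgeR adjusted p of that comparison was 0.499, and over the alternatives it ran from 0.0227 (without the P1 female) to 0.967 (without the normal P7 female). It was 0.0492 by DESeq2, and without the P1 male it was 0.942 with the sign of the fitted change turned. The P1 value rests on 32 reads of 1 cell of the male.

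The genes around the receptors gave 1 call. Of the other genes on the 7 lists of scavenger receptors, lectins, ligands, lipoprotein handling, endocytosis, sinusoidal genes and uptake of apoptotic cells, 88 were tested in Car4- capillaries. Tgfbi fell from P7 to P21, from 44.1 and 17.7 CPM to 1.40 and 0.673 CPM (log2 change -4.81, standard error 0.84, edgeR adjusted p = 0.0439). The class was mostly Early cells at P7 and nearly all Late cells at P21, and Tgfbi at P7 stood at 25.4 (female) and 18.1 CPM (male) in Early cells and at 173.2 CPM in the 44 Late cells of the female. The call was lost with the CD31 gate (edgeR adjusted p = 0.0512), with sex as a replicate block (0.0525), by limma (adjusted p = 0.196) and without any single mouse of P7 in normal air (0.329 without the female, 0.0828 without the male) or P21 (0.0866 and 0.271). By DESeq2 the adjusted p was 7.59e-10, the lowest of the alternatives, and 0.329 was the highest. None of the 88 was called in the other 2 comparisons of that class, and none of 74, 79 and 78 in Car4+ capillaries, proliferative EC and venous EC. Between 0 and 21 of them had an unadjusted p under 0.05 in a comparison.

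The most abundant of these genes in Car4- capillaries are given as the mean over 8 mice. Among other scavenger receptors these were Lyve1 (1946 CPM), Cd36 (1471) and the lysosomal receptor Scarb2 (97.1). Among lectins they were Cd93 (2457), Thbd (1801) and Clec14a (1194). Sparc, a ligand of stabilin-1, reached 5465 CPM and Calr 321.96. Gpihbp1, which anchors lipoprotein lipase, stood at 2243 CPM and Cav1, of caveolae, at 2184. Lamp1 (767), Rab7 (457.9) and Ctsl (377.9), genes of late endosomes and lysosomes, led the endocytosis list, and Mfge8 (400.6), a bridge to dying cells, led the list of apoptotic cell uptake.

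Likeness to each member was ranked by the Pearson correlation of log2(CPM + 1) over 50 sums of a mouse and a label, among genes with a mean of at least 10 CPM. These sums share mice, and lymphatic EC are 4 of them. Closest to Stab1 were Mmrn1 (r = 0.75), Slc45a3 (0.71) and Susd4 (0.71), and without the lymphatic sums the values were 0.45, 0.24 and 0.28. Closest to Mrc1 were Apba2 (0.90), Lcn2 (0.88) and Reln (0.87), with 0.51, 0.03 and 0.04 in the other 46 sums. Stab2 was closest to Maf (0.74), Gsap (0.70) and Egln3 (0.70), and these kept 0.57, 0.56 and 0.65 without lymphatic EC. Scarb1 was closest to Tmcc2, Tbx3 and Plekha1 (0.78 each), with 0.74, 0.72 and 0.76 without lymphatic EC. Scarf1 had the weakest partners, Gtf2i (0.61), Glud1 (0.49) and Serpinb6a (0.48).

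Among the members, Stab2 and Mrc1 had an r of 0.67 over 50 sums and 0.39 over the 46 without lymphatic EC. Stab1 and Mrc1 had 0.64 and 0.09, and Stab1 and Stab2 had 0.52 and 0.19. Scarb1 was negatively related to Mrc1 (-0.42) and Stab2 (-0.36) over all sums and near 0 without the lymphatic ones (0.01 and -0.09). The likeness of Stab1 to Stab2 and to Mrc1 thus rested largely on the 4 lymphatic sums, while that of Stab2 and Mrc1 rested on them in part.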

How the data were processed

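Single cells of mouse distal lung were sequenced from plates as Tn5-cut cDNA, per the labels' protocols. The authors deposited whole-number counts of reads per gene and cell, without normalization. Per the submitters' processing notes, STAR 2.5.2b, HTSeq 0.10 and the build GRCh38 were used, which is a human build name for mouse cells; annotation and strand setting are not given in the sources used here. Positions and exon lengths were taken from the GRCm38 annotation GENCODE M21, where 18017 of 18072 symbols were found. The authors' subtype labels were used and 0 columns left out.

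Counts were summed per mouse and class over at least 8 cells and tested with edgeR 4.0.16 (TMM, filterByExpr, quasi-likelihood, all usable groups of a class in 1 model, Benjamini-Hochberg adjustment, calls under 0.05). The tests were checked on simulated data. P-values measure the spread between these mouse names, which within a group also differ in sex and, for CD31 cells, in the run given in the cell names. The CD31 cells of P1 and P7 were of different runs in both sexes. In the females, so were those of P7 and P21 and those of hyperoxia and normal air. Run and group cannot be told apart there. Shares of cells were taken after thinning to 50000 reads, which left out 11 shallower cells. CPM ratios of E18.5 over P1 carry no test. Intervals are 95% exact binomial or Poisson intervals; a share of 0 is given with the limit of 3 counts over the number of cells. Log2 changes of the tested comparisons are given only where a group mean reached 10 CPM, a rule chosen after values were seen; ratios of E18.5 over P1 were not held to it. Alternatives for Tgfbi and Lyve1 were added after seeing the data.

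The members, the lists and the alternatives were chosen with earlier results of these data known. Named were the 5 members, genes of each list that were called, the 3 most abundant per list in a class, and the 3 most like each member. The 7 gene lists and 6 marker lists (endothelial, macrophage, lymphatic, mesenchymal, epithelial and erythroid) were used as descriptions; the mesenchymal, epithelial and erythroid lists summed to at most 373, 188 and 379 CPM in any sum. Alternatives were DESeq2 1.42.0, limma 3.58.1, RLE scaling, no filter, the CD31 gate, thinned cells, sex as a block, a shared run and leaving out each mouse. Computed with R 4.3.3 and Python 3.11.15.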

Additional observations from a re-analysis of the deposited data

Results flagged for a closer look

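Scarb1 went in opposite directions from E18.5 to P1 in 2 comparisons. In venous EC both E18.5 mice (11.8 and 15.1 CPM) lay below both P1 mice (147.7 and 40.5 CPM), with a log2 ratio of E18.5 over P1 of -2.81. From nonproliferative embryonic EC to Car4- capillaries both E18.5 mice (270.7 and 281.6 CPM) lay above both P1 mice (178.4 and 270.4 CPM), with a log2 ratio of 0.30. The difference of the log2 ratios was 3.11 and was not tested. Venous EC of E18.5 had 11 cells per mouse.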

How the results depend on the processing

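Each result was recomputed with another tool, scaling, filter, gate or depth, and without each mouse. Of the recomputed log2 changes that left out no mouse, 12 reversed and the others kept their direction; of those that left out 1 mouse, 16 reversed. The causes were not tested. Over all genes DESeq2 called 0.617 to 4.76% of the genes tested in a comparison, where edgeR called 0 to 0.266%.

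Between P21 and P7, the Scarb1 change of 0.23 in Car4- capillaries was -0.021 with the CD31 gate and -0.79 in the males of 1 run, and that of 0.15 in Car4+ capillaries was -0.32 and -2.07. Scarf1 in Car4+ capillaries, at -0.31, was 0.20 with the CD31 gate, 0.048 with thinned cells and 0.066 in the males of 1 run. Under hyperoxia, Scarf1 in Car4+ capillaries, at -0.14, was 0.040 with the CD31 gate, 0.29 thinned and 0.16 by limma. In proliferative EC between P7 and P1, Scarf1, at 0.12, was -0.19 thinned, and Stab1, at -0.40, was 0.18 by limma. DESeq2 called 1 member there, Stab2. Tgfbi in Car4- capillaries between P21 and P7 kept its direction in all alternatives, from -5.38 to -3.30, but not its call. Lyve1 under hyperoxia kept its direction, from 2.14 to 2.40, with adjusted p-values from 1.63e-07 (DESeq2) to 1.

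For E18.5 over P1, the females of 1 run gave Stab2 a log2 ratio of 12.43 between embryonic EC and Car4- capillaries (10.82 over all mice). In venous EC they gave it 5.78 (9.26), where thinned cells gave 3.36. They gave Mrc1 -2.49 in venous EC (1.85). In arterial EC I they gave Scarb1 -2.81 (-0.88) and Scarf1 -1.29 (-0.12), and thinned cells gave Mrc1 -1.65 (3.04).

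Leaving out each mouse in turn moved the members called in proliferative EC between P7 and P1 from 0 to 1 (1 without the P1 female). Between P7 and P1 the Car4- changes ran from -0.21 to 0.76 for Scarb1 and from -0.21 to 0.57 for Stab1. In proliferative EC they ran from -0.30 to 0.84 for Scarf1 and from -1.07 to 1.14 for Stab1, and for venous Stab1 from -1.26 to 0.20. Between P21 and P7 they ran from -1.67 to 0.12 for Scarf1 in Car4- and from -0.034 to 0.42 for Scarb1 in Car4+ capillaries. Under hyperoxia they ran from -0.26 to 0.077 for Scarf1 in Car4-, from -0.70 to 0.33 for Scarf1 and -0.25 to 0.026 for Stab1 in Car4+ capillaries, and from -1.51 to 0.038 for venous Scarb1. For E18.5 over P1, Mrc1 ran from -0.043 to 4.82 between embryonic EC and Car4- capillaries and from -2.53 to 3.83 in proliferative EC. It ran from -1.58 to 4.95 in venous EC and from 1.71 to 3.61 in arterial EC I. Venous Stab2 ran from 5.25 to 9.80.

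With sex as a replicate block, 0 members were called in all 10 comparisons. Over all genes the block gave 29 calls in Car4- capillaries between P21 and P7 (39 without it), 3 under hyperoxia (2 without it) and 2 in Car4+ capillaries between P21 and P7 (1 without it). Deviations of same-sex mice correlated between -0.04 and 0.13 over 24 pairs of groups, so the sexes are not treated as pairs.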
